A study of Mus musculus with 9 samples.

Results

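Slfn2, Ms4a4d, Tnip3 and Nt5e are 4 immune regulators that were transcribed in AML12 cells, a mouse hepatocyte line, and that were present at higher levels in both groups of cells given fatty acids than in untreated cells. They were taken by their symbols from the 3 deposited count tables, which held 10260 gene symbols in all, and counts were summed per symbol. All 4 were listed in each table, each through 1 curated RefSeq transcript, and all 4 passed the filter on low counts in each comparison. They were selected on measured values of these same libraries, taken here to be their higher counts with fatty acids than in control, so their differences from the controls are given as descriptions, with no test. The series held 9 RNA libraries in 3 groups of 3. Control cells had no treatment. The PA/OA cells were exposed for 24 h to 0.2 mM PA together with 0.4 mM OA, taken to be palmitic and oleic acid. The Ang(1-7) cells received the same fatty acids after a dose of 100 nM Ang(1-7), a short angiotensin peptide, given 30 min earlier. All 3 groups were AML12 cells grown in DMEM with fetal bovine serum. No group with a carrier only was analysed here, so effects of the fatty acids and of anything they were dissolved in cannot be told apart, and cells given Ang(1-7) without fatty acids were not analysed here.

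The 4 genes are better known from immune cells than from hepatocytes. Tnip3 encodes ABIN-3, a protein named for binding A20 (Tnfaip3), the ubiquitin-editing enzyme that switches off NF-kB signalling, and the human protein restrains that pathway. Whether the mouse protein does so was not tested here. Slfn2 encodes Schlafen 2, an interferon-inducible protein that mouse T cells need to stay quiescent. Ms4a4d encodes a membrane protein of the MS4A family, which also holds the B cell antigen CD20 (Ms4a1). Nt5e encodes CD73, the cell surface enzyme that turns AMP into adenosine, a signal that dampens immune responses.

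The sequences around the annotated starts are shown because the 4 genes stood at different distances from their control levels and because Tnip3 belongs to the NF-kB pathway, whose factors bind a known DNA motif. Each window runs from 250 bases before the start to 50 bases after it, 5′ to 3′ on the strand of the gene, from RefSeq on GRCm38.p6. All 4 genes matched the RefSeq table by symbol. Capitals mark matches, on either strand, to the NF-kB motif (GGGA, any 4 bases, then CC) or to its shorter form GGGANTTCC, 2 motifs that can overlap and that were chosen with the sequences in view. The windows lie on the plus strand at chr11:83064862-83065161 for Slfn2, chr19:11536544-11536843 for Ms4a4d, chr6:65590148-65590447 for Tnip3 and chr9:88327359-88327658 for Nt5e.
Tnip3: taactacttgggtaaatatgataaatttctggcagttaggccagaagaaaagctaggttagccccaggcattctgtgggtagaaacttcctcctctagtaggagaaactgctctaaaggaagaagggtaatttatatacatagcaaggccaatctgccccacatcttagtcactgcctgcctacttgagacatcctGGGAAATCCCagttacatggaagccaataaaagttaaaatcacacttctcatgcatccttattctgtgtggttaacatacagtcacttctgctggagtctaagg
Slfn2: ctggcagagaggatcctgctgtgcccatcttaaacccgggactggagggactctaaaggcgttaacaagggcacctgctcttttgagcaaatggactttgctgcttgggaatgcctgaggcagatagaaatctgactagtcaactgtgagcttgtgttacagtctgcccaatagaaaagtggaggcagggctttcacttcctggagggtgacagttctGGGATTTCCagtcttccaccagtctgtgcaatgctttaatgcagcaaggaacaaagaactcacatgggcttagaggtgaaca
Ms4a4d: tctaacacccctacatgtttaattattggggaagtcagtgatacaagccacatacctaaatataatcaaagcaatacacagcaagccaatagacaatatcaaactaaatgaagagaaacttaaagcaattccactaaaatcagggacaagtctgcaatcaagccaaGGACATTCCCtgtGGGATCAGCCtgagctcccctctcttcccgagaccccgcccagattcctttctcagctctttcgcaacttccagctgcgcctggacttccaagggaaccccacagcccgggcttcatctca
Nt5e: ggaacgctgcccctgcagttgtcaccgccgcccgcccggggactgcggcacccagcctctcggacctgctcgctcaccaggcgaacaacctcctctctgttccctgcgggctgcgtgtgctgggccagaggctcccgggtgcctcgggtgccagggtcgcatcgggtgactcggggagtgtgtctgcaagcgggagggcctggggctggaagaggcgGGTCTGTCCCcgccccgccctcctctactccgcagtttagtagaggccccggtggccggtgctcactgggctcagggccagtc

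With the annotated first base of the gene counted as 0, Tnip3 held the match GGGAAATCCC from -54 to -45, and the same bases read on the other strand, GGGATTTCCC, matched the longer and the shorter motif. Slfn2 held GGGATTTCC from -32 to -24, which fits the shorter motif and not the longer one. Tnip3 and Slfn2 thus shared the 9 letters GGGATTTCC, on opposite strands. Ms4a4d had a pair of matches to the longer motif, GGGAATGTCC on the other strand from -84 to -75 and GGGATCAGCC from -71 to -62. Nt5e had 1, GGGACAGACC on the other strand from -33 to -24. Of 32851 RefSeq start windows of the same length, 20.7% held the longer motif and 1.68% the shorter one, so a match to the longer motif is common. No window of the 4 held the AP-1 motif TGANTCA (7.81% of all windows), the interferon response motif of GAAA, any 2 bases and GAAA (3.44%) or the PPAR direct repeat of AGGTCA, any base and AGGTCA (0.04%), which says only that these letters are not in these windows. The windows differed in base composition. That of Nt5e was 71.0% G or C with 23 CpG pairs and 4 matches, overlapping in pairs, to the GC box GGGCGG, which 35.7% of all windows held. Those of Slfn2, Ms4a4d and Tnip3 were 49.7%, 46.7% and 42.3% G or C with 2, 5 and 0 CpG pairs, where the median of all windows was 52.7% and 7 pairs. The TATAAA motif, present in 13.6% of all windows, matched Tnip3 alone of the 4, on the other strand from -120 to -115. Such matches are descriptions of the letters, and binding was not measured.

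**Figure D1:**
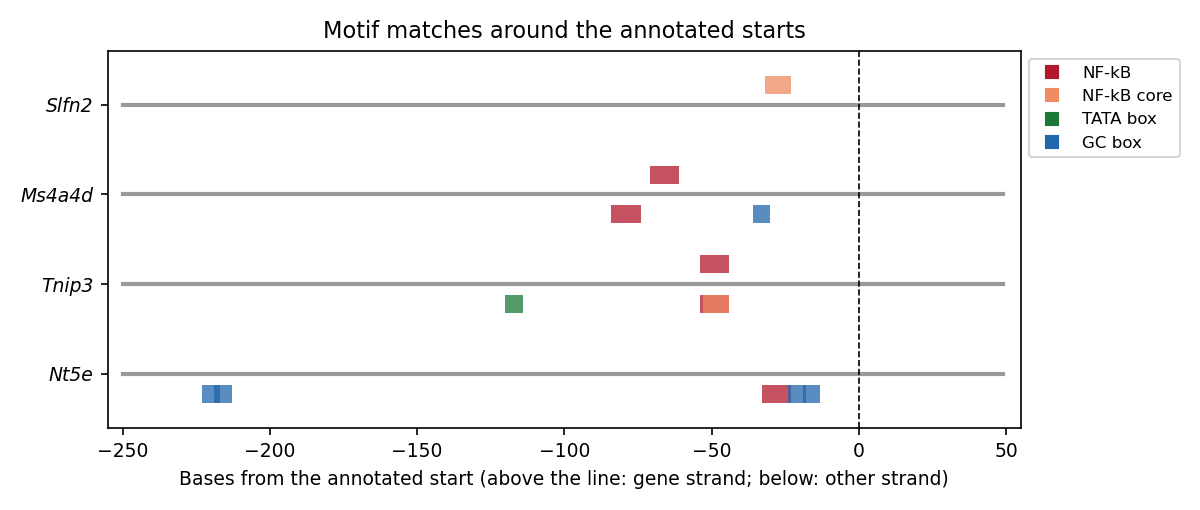
Motif matches in the start windows of the 4 genes, drawn by distance in bases from the annotated start (x axis), with boxes above each line on the strand of the gene and below it on the other strand. The NF-kB matches of Slfn2, Ms4a4d, Tnip3 and Nt5e lie between -84 and -24, and the GC box matches are in Nt5e and Ms4a4d.

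Listed counts ranged from 24588312 to 28704499 per library and table. Nothing in the labels tells whether replicates came from separate cultures, so the spread between them, and each test built on it, may be technical. Of 15 hepatocyte markers, 7 were listed in the tables with controls and had a count above 0 in each of those libraries, with a sum of 21034 to 23829 CPM (counts scaled to one library total for all) that came mostly from the keratin genes Krt8 and Krt18. Albumin was low, at 9.28 ± 2.72 CPM in controls (SD, n = 3), and Apoa1, Fga, Cps1 and Cyp2e1 were not among the genes listed there. Of 17 markers of T, NK and B cells, the cells in which Slfn2 and the MS4A genes are best known, 0 were listed in the tables with controls and 1 in the table of both fatty acid groups, at no more than 0.615 CPM. Of 16 macrophage and general leukocyte markers, 2 were listed in the tables with controls, Cd68 and Lyz2, with a sum of 3.69 to 7.38 CPM in controls and 4.50 to 7.80 in PA/OA. Ang(1-7) 2 and Ang(1-7) 3 stood apart. Nervous system markers other than Mbp, 9 of 16 listed in the table of both fatty acid groups, summed to 90.7 and 48.8 CPM in them, against 0.565 in Ang(1-7) 1 and 0.234 to 0.917 in PA/OA. Each of the 9 was detected in both, whereas 2 were in Ang(1-7) 1 and 1 per PA/OA library. Genes with no PA/OA counts were listed only through their Ang(1-7) counts, so these numbers and sums are partly fixed by the listing. Slc1a2 alone of the 9 had a lower mean in Ang(1-7), 0.338 ± 0.360 CPM, than in PA/OA, 0.606 ± 0.337. Mbp, left out of the sum, did not follow this order. It had 125 ± 8.75 CPM in Ang(1-7) and 132 ± 1.61 in PA/OA, with overlapping groups. The fitted changes of the 4 genes are given with and without these libraries, whereas the Ang(1-7) levels, list medians and profiles are given with them.

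Tnip3 was counted 631, 685 and 672 times in controls 1 to 3, 1605, 1230 and 1705 times in PA/OA 1 to 3, and 1317, 1351 and 1463 times in Ang(1-7) 1 to 3. Each library with fatty acids lay above each control, and the PA/OA and Ang(1-7) libraries overlapped. On a scale common to the 9 libraries (CPM with trimmed mean scaling over genes in all 3 tables, used for the levels that follow), the level went from 24.8 ± 1.31 in controls to 58.7 ± 9.55 in PA/OA and 52.4 ± 1.80 CPM in Ang(1-7) (SD, n = 3 each). The fitted log2 change of PA/OA against control was 1.24 ± 0.15 (SE), a 2.36-fold difference with a 95% interval of 1.89 to 2.94. Of the 4 genes, Tnip3 had the largest coefficient of variation within the PA/OA group, 16.3%, with PA/OA 2 at 48.0 CPM and the other two at 62.1 and 66.1.

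Slfn2 was counted 6181, 5949 and 5600 times in controls, 10249, 10006 and 10554 times in PA/OA, and 10088, 11176 and 10844 times in Ang(1-7). It was the steadiest of the 4, with a coefficient of variation of 3.25% in controls, 2.47% in PA/OA and 2.59% in Ang(1-7). Its level was 221 ± 7.20 CPM in controls, 399 ± 9.85 in PA/OA and 407 ± 10.5 in Ang(1-7). The fitted log2 change of PA/OA against control, 0.85 ± 0.07, was the smallest of the 4 (1.80-fold, 95% interval 1.62 to 1.99). Within the GENCODE model that carries its RefSeq accession, 69 of 1615 stretches of 50 bases also occur in Slfn4, and the gene overlaps Gm20234, an antisense gene. Whether counting used strand is not given in the sources used here, so reads from Slfn2 and its antisense partner cannot be told apart.

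Ms4a4d was counted 2647, 2780 and 2877 times in controls, 5933, 4871 and 4717 times in PA/OA, and 5471, 7217 and 7097 times in Ang(1-7). The controls lay below the other 6 libraries, and Ang(1-7) 2 and 3 lay above each PA/OA library while Ang(1-7) 1 lay among them. Its level was 104 ± 6.09 CPM in controls, 201 ± 25.1 in PA/OA and 250 ± 29.2 in Ang(1-7). The fitted log2 change of PA/OA against control was 0.95 ± 0.10 (1.93-fold, 95% interval 1.67 to 2.23). It shares 8 of 1464 stretches of 50 bases with Ms4a4c, whereas Tnip3 and Nt5e share 0 of 3720 and 0 of 3946 with other annotated transcripts.

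Nt5e was counted 938, 1164 and 768 times in controls, 1883, 2236 and 2138 times in PA/OA, and 1939, 2798 and 2311 times in Ang(1-7). The controls again lay below the other 6 libraries, with a coefficient of variation of 19.6%, the largest among the controls of the 4 genes, and Ang(1-7) 2 was the highest library. Its level was 35.8 ± 7.03 CPM in controls, 81.0 ± 7.36 in PA/OA and 89.2 ± 14.4 in Ang(1-7). The fitted log2 change of PA/OA against control was 1.18 ± 0.14 (2.26-fold, 95% interval 1.83 to 2.78).

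**Figure D2:**
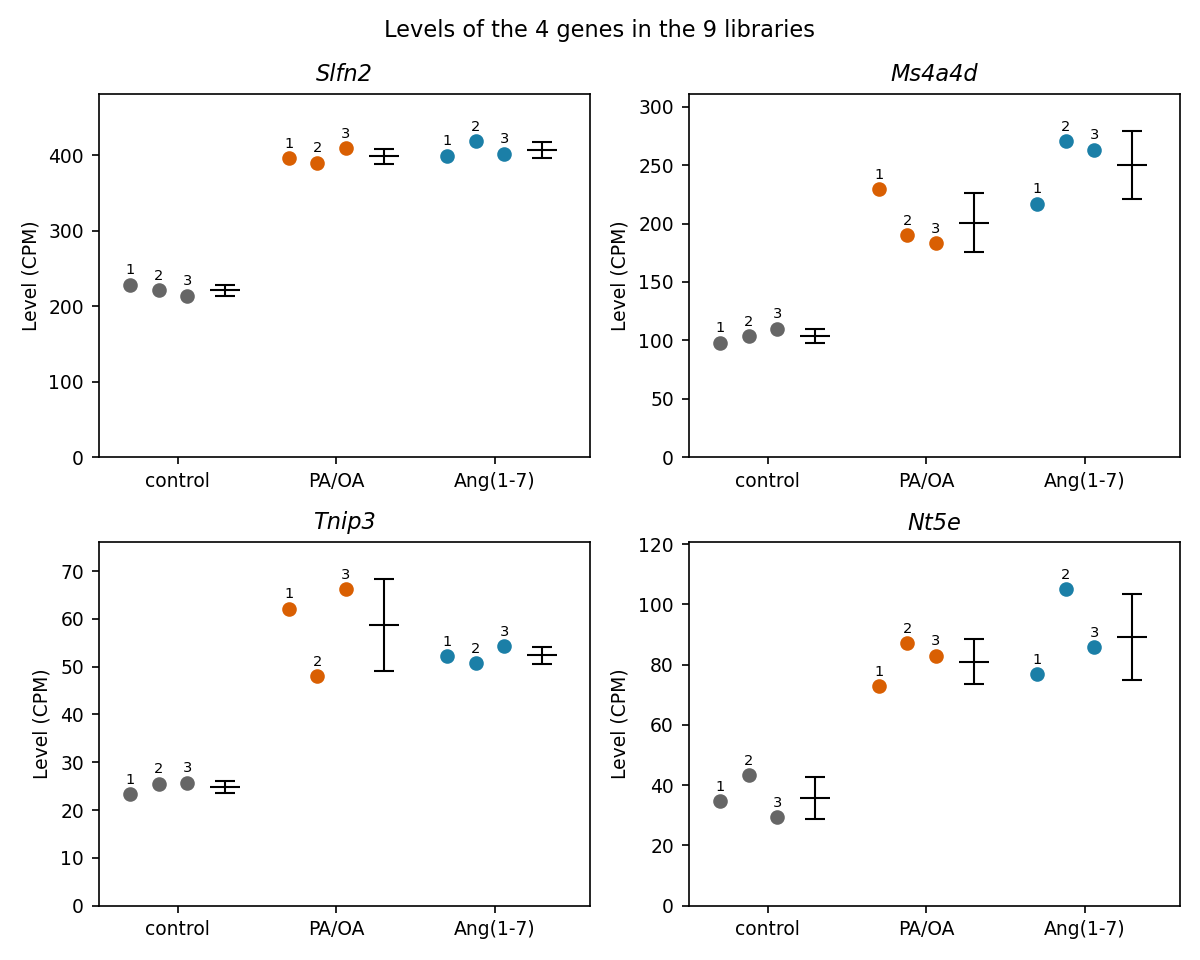
Level in CPM (y axis, from 0) of Slfn2, Ms4a4d, Tnip3 and Nt5e in each of the 9 libraries, numbered by replicate, with the mean and SD of each group (n = 3) beside the points. The controls lie below the other 6 libraries in each panel, and the PA/OA and Ang(1-7) points overlap in each.

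Set per kilobase of the matched GENCODE vM21 transcript, which allows the genes to be compared, the order of the levels was the same in the 3 groups. In controls Slfn2 stood at 133 ± 4.32 CPM per kilobase, Ms4a4d at 68.6 ± 4.02, Nt5e at 8.96 ± 1.76 and Tnip3 at 6.59 ± 0.347. The nearest neighbours in controls were Nt5e, from 7.36 to 10.8, and Tnip3, from 6.19 to 6.82, which did not overlap. In PA/OA the per kilobase levels were 240 ± 5.92 for Slfn2, 133 ± 16.6 for Ms4a4d, 20.3 ± 1.84 for Nt5e and 15.6 ± 2.53 for Tnip3, and in Ang(1-7) they were 245 ± 6.34, 165 ± 19.3, 22.3 ± 3.59 and 13.9 ± 0.478. In PA/OA against control the larger fitted changes were those of the pair with the lower levels, Tnip3 and Nt5e, whose 95% intervals overlapped that of Ms4a4d, and in Ang(1-7) against control that of Ms4a4d was larger than that of Tnip3.

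Over all genes, edgeR's quasi-likelihood test, at a Benjamini-Hochberg adjusted p of 0.05, called 5.05% of 6213 genes in PA/OA against control, 2.82% (175) higher and 2.24% (139) lower, and the 3 PA/OA libraries lay above the 3 controls in 12.2%. The 4 genes were among both, as their choice implies, and nothing is read from that. They differed by 1.80 to 2.36-fold, and by fitted log2 change Tnip3 ranked 48th, Nt5e 66th, Ms4a4d 145th and Slfn2 210th from the top of the 6213 genes. The 314 genes called in either direction became 537 with DESeq2 and 33 in a fit over all 9 libraries, and leaving out control 1 gave 99, control 3 gave 200, PA/OA 2 gave 147 and PA/OA 3 gave 134. Of the markers of other cell types, those of macrophages overlapped between the groups in sum, as above, and Des, the 1 stellate cell and fibroblast marker listed of 14, had 2.94 to 5.71 CPM in controls and 5.42 to 8.96 in PA/OA, whose part was not tested.

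The comparison of Ang(1-7) with PA/OA asked what the peptide changed in cells given fatty acids. It was not a contrast on which the 4 genes were taken to be chosen. Both its groups, PA/OA and Ang(1-7), were nevertheless part of the contrasts with control on which the choice was taken to rest. Of the 4, 0 passed, and the groups overlapped in all 4, where over all genes 4.99% were higher and 6.01% lower with no overlap. In edgeR's quasi-likelihood test 0 of 9261 genes were called higher and 0 lower (0%), with 236 (2.55%) at an unadjusted p under 0.05 and 5 called by DESeq2. The lowest p of the 4 was that of Ms4a4d, with a log2 change of 0.32 ± 0.14, a 1.25-fold difference with a 95% interval of 0.998 to 1.56 (edgeR, unadjusted p = 0.0513, adjusted p = 0.965). In the authors' deposited table the log2 fold change of this transcript was 0.33 with an unadjusted p of 0.0241, which became 0.619 in the authors' deposited table after a Benjamini-Hochberg adjustment made here over its 14553 transcripts.

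Nt5e differed by 0.14 ± 0.16 on the log2 scale (1.10-fold, 95% interval 0.859 to 1.41, edgeR adjusted p = 0.965). Tnip3 was the only one of the 4 with a lower fitted level in Ang(1-7), at -0.17 ± 0.17 (0.892-fold, 95% interval 0.687 to 1.16, edgeR adjusted p = 0.965). It stayed below 0 in each of the 13 alternatives, as Slfn2 and Ms4a4d stayed above 0, and these refits share libraries. Slfn2 differed by 0.031 ± 0.10 (1.02-fold, 95% interval 0.872 to 1.20, edgeR adjusted p = 0.981), the narrowest interval of the 4. A p that misses the threshold does not show equal levels, and the intervals leave room for differences of up to 1.56-fold higher for Ms4a4d and 0.687-fold for Tnip3.

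Ms4a4d was higher in the pair of Ang(1-7) libraries that also held more transcripts of other cell types. Stellate cell and fibroblast markers, 6 of 14 listed in the table of both fatty acid groups, summed to 23.6 and 16.6 CPM in Ang(1-7) 2 and 3, against 8.56 in Ang(1-7) 1 and 5.98 to 9.22 in PA/OA. Each of the 6 was detected in Ang(1-7) 2 and 3, and 1 or 2 were in the other 4 libraries, where Col1a2, Col3a1 and Thy1 had no counts. Macrophage and leukocyte markers, 4 of 16 listed, summed to 14.9 and 10.0 CPM in Ang(1-7) 2 and 3, against 5.33 in Ang(1-7) 1 and 4.46 to 7.76 in PA/OA, with C1qa and C1qb at 0 in the PA/OA libraries. Endothelial markers, 2 of 11 listed, did not follow this order, with 3.39 CPM in Ang(1-7) 1, 2.51 and 3.17 in Ang(1-7) 2 and 3, and 1.16 to 3.48 in PA/OA. The smallest mean count listed for both fatty acid groups was 5.17, so genes with no PA/OA counts were listed only through their Ang(1-7) counts. The numbers detected and the sums that include such genes are thus partly fixed by the listing. Relative to the control mean, Ms4a4d stood at 2.61 and 2.54 in Ang(1-7) 2 and 3, at 2.09 in Ang(1-7) 1 and at 1.76 to 2.21 in PA/OA, and Nt5e at 2.93 and 2.39, at 2.15 and at 2.04 to 2.44, so that Nt5e in Ang(1-7) 3 lay inside the PA/OA range. With Ang(1-7) 1 as the lone library of its group, assumed to vary like the PA/OA libraries, the log2 change against PA/OA was 0.11 ± 0.15 for Ms4a4d and turned to -0.074 ± 0.16 for Nt5e, while it was 0.0052 ± 0.11 for Slfn2 and -0.17 ± 0.21 for Tnip3. Without Ang(1-7) 2 alone, the change of Nt5e was 0.017 ± 0.12. The part of the other cell types in these values was not tested, and more cells of a type and more RNA per cell cannot be told apart in such libraries.

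**Figure D3:**
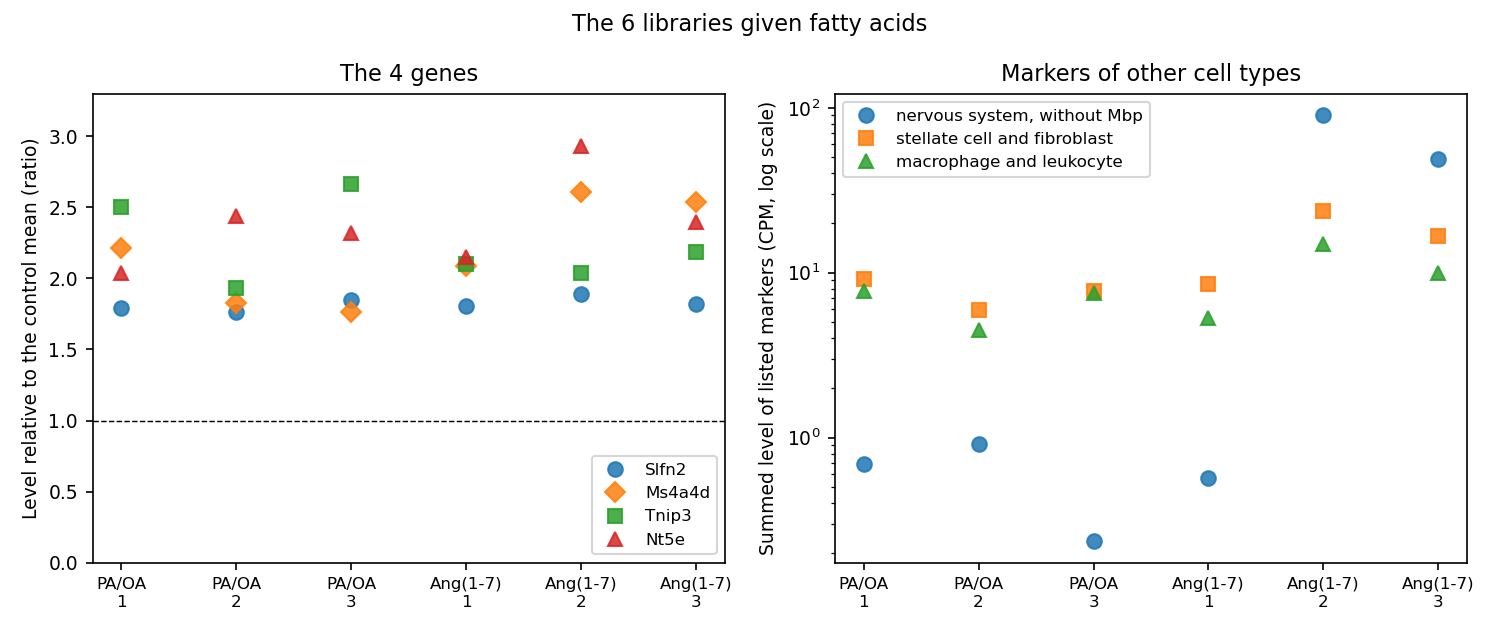
The 6 libraries given fatty acids, with the level of each of the 4 genes relative to the control mean (left, dashed line at 1) and the summed CPM of listed markers of other cell types (right, log scale). Ms4a4d is higher in Ang(1-7) 2 and 3 than in Ang(1-7) 1. So are the 3 plotted sums, of nervous system markers without Mbp, stellate cell and fibroblast markers, and macrophage and leukocyte markers. Markers with no PA/OA counts were listed only through their Ang(1-7) counts. Slfn2 stays between 1.76 and 1.89 in the 6 libraries.

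The Ang(1-7) group against the controls shares the control libraries with PA/OA against control, so its values are set beside those above as a description. The log2 change was 1.30 ± 0.19 for Nt5e (2.46-fold, 95% interval 1.82 to 3.33), 1.25 ± 0.12 for Ms4a4d (2.39-fold, 1.96 to 2.90), 1.06 ± 0.15 for Tnip3 (2.09-fold, 1.64 to 2.66) and 0.86 ± 0.09 for Slfn2 (1.82-fold, 1.57 to 2.10). The 3 Ang(1-7) libraries lay above the 3 controls for each of the 4, which held for 13.2% of the 6134 genes tested. In edgeR's test 15 genes were called, each higher (0.245%). The 4 genes were among them, from which nothing is read, whereas DESeq2 called 233 (147 higher). The number called was 4 without control 1, control 2 or control 3, 7 without Ang(1-7) 3, 32 without Ang(1-7) 1 and 624 without Ang(1-7) 2. The 4 genes were not among those called without control 1, control 2 or control 3. Over these 6 fits Ms4a4d was called in 3, Slfn2 and Nt5e in 2 each and Tnip3 in 1. The fitted log2 changes of the 4 genes stayed between 0.84 and 1.45 in them. With Ang(1-7) 1 as the lone library of its group they were 1.09 ± 0.21 for Nt5e, 1.06 ± 0.13 for Ms4a4d, 1.06 ± 0.22 for Tnip3 and 0.85 ± 0.10 for Slfn2.

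**Figure D4:**
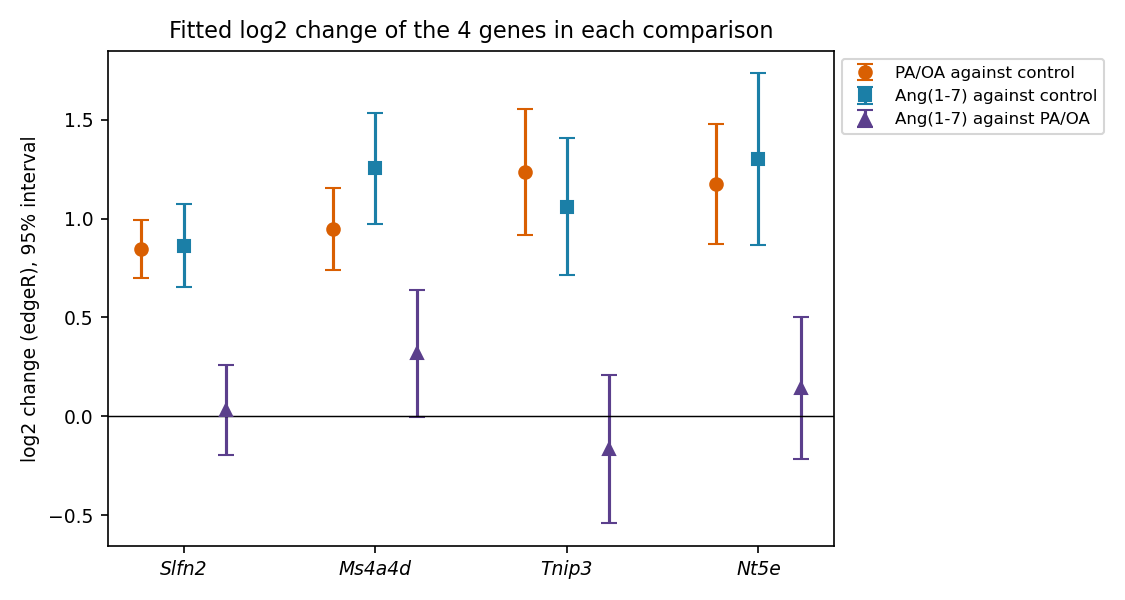
Fitted log2 change with its 95% interval (y axis) of the 4 genes in the 3 comparisons, which share libraries in pairs. The values against control lie between 0.85 and 1.30, and the intervals of Ang(1-7) against PA/OA hold 0 for each gene.

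Tnip3 was set beside genes that carry or restrain NF-kB signalling. Of 25 genes of A20 and NF-kB feedback, 14 were tested in PA/OA against control. In edgeR's test 2 rose, one of them Tnip3, which was chosen for its rise, 0 fell and the other 12 were not called, where 5.05% of all genes were called. At an edgeR unadjusted p under 0.05 there were 5, where 19.4% of all genes were. DESeq2 called 4, where it called 537 of the 4888 genes to which it gave an adjusted p. Tnip3 is among the 5 and among the 4. The median log2 change of the list, which includes Tnip3, was 0.29 where that of all genes was 0.01. Beside Tnip3, Rnf11, which encodes an A20 partner, rose from 179 ± 13.1 to 222 ± 18.8 CPM (0.31 ± 0.09, edgeR adjusted p = 0.0429). Nfkbia, the inhibitor IkB-alpha and a direct NF-kB target, had 199 ± 17.5 and 241 ± 10.1 CPM (0.27 ± 0.08, edgeR adjusted p = 0.0638). Zc3h12a, the RNase Regnase-1 that degrades inflammatory mRNAs, had 7.06 ± 1.59 and 12.5 ± 2.27 CPM (0.83 ± 0.29, edgeR adjusted p = 0.104), and DESeq2 called both. In Ang(1-7) against control the groups overlapped for Rnf11, with 178 ± 13.1 CPM in controls and 198 ± 44.1 in Ang(1-7) (0.15 ± 0.17, edgeR adjusted p = 0.690). Zc3h12a had 7.04 ± 1.59 and 16.0 ± 0.587 CPM there without overlap (1.19 ± 0.27, edgeR adjusted p = 0.135). DESeq2 called Zc3h12a, among 233 genes. Nfkbia had 199 ± 17.4 and 238 ± 33.7 CPM, also without overlap (0.26 ± 0.13, edgeR adjusted p = 0.393).

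Tnfaip3, which encodes A20 itself, had 33.7 ± 0.944 CPM in controls and 42.7 ± 6.11 in PA/OA (0.34 ± 0.15, edgeR adjusted p = 0.214). Its 3 PA/OA libraries lay above the 3 controls, as did those of Tnip3, Rnf11, Nfkbia, Zc3h12a and N4bp1 on this list, 6 of 14 genes where 12.2% of all genes did so. Tnip3, which was chosen for this, is among the 6. Tnip2, the other measured member of the ABIN family, had 32.4 ± 1.77 and 33.3 ± 1.47 CPM (0.037 ± 0.15, edgeR adjusted p = 0.933), and the groups overlapped. Of 19 genes for NF-kB subunits, IKK and upstream adaptors, 11 were tested and 0 were called by edgeR, where 5.05% of all genes were. At an edgeR unadjusted p under 0.05 there were 2, where 19.4% of all genes were. DESeq2 called 1, where it called 537 of 4888 genes. That gene was Ikbkg, the regulatory IKK subunit NEMO, with 27.1 ± 1.25 and 40.1 ± 8.42 CPM (0.57 ± 0.17, edgeR adjusted p = 0.0566), and the list's median was 0.11. Ikbkb, the catalytic subunit IKK-beta, had 2.45 ± 0.607 and 4.72 ± 0.263 CPM (0.94 ± 0.45, edgeR adjusted p = 0.251).

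Among the relatives of Slfn2, Slfn9 and Slfn3 were tested of 10 Schlafen genes. Slfn9 had 103 ± 8.43 CPM in controls and 111 ± 7.71 in PA/OA (0.11 ± 0.10, edgeR adjusted p = 0.602), and Slfn3 had 6.70 ± 1.26 and 5.28 ± 0.328 (-0.34 ± 0.34, edgeR adjusted p = 0.654), with overlapping groups in both. Of 30 interferon-stimulated genes, the class to which Slfn2 belongs in immune cells, 4 were tested. By edgeR 0 were called, where 5.05% of all genes were, and by DESeq2 0, where 537 of 4888 genes were. At an edgeR unadjusted p under 0.05 there was 1, where 19.4% of all genes were. That was Ddx58, the RNA sensor RIG-I, at 37.8 ± 7.43 and 48.1 ± 5.91 CPM (0.35 ± 0.16, edgeR adjusted p = 0.233), and the list's median was 0.29. Bst2, which tethers budding virions, had 53.8 ± 7.88 and 63.5 ± 4.18 CPM (0.24 ± 0.13, edgeR adjusted p = 0.354).

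Of 21 genes of the MS4A family and the related Tmem176 pair, 4 were tested in PA/OA against control. Ms4a4d alone was called by edgeR, where 5.05% of all genes were. At an edgeR unadjusted p under 0.05 there were 3, Ms4a4d included, where 19.4% of all genes were. The PA/OA libraries lay above the controls in all 4 of those tested, Ms4a4d, which was chosen for this, included, where 12.2% of all genes did so. Tmem176b had 29.2 ± 7.31 CPM in controls and 41.1 ± 1.58 in PA/OA (0.50 ± 0.17, edgeR adjusted p = 0.104), and Tmem176a had 35.8 to 39.9 and 46.5 to 53.8 (0.38 ± 0.14, edgeR adjusted p = 0.121). Ms4a4b was near the lower end of the table, at 2.01 ± 0.562 and 3.97 ± 1.28 CPM (0.98 ± 0.49, edgeR adjusted p = 0.283). The median of the list, 0.72, thus rests on 4 genes.

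Nt5e acts between enzymes that make AMP outside the cell and proteins that take up or break down adenosine. Of 24 genes of that route, 6 were tested, Nt5e rose, Ahcy fell and 4 were not called, where 2.82% of all genes were called higher and 2.24% lower. Nt5e was chosen for its rise and is part of the list's median of 0.29. DESeq2 called the same pair, where it called 537 of 4888 genes. Ahcy, which splits S-adenosylhomocysteine into adenosine and homocysteine inside the cell, went from 716 ± 10.1 to 606 ± 3.34 CPM (-0.24 ± 0.06, edgeR adjusted p = 0.0227). Entpd2, an ectonucleotidase that acts upstream of CD73 on ATP, had 110 ± 10.8 and 133 ± 7.91 CPM (0.27 ± 0.10, edgeR adjusted p = 0.130). Adk, the adenosine kinase, had 4.92 ± 0.483 and 6.12 ± 1.45 CPM (0.31 ± 0.36, edgeR adjusted p = 0.716). Pnp, a purine nucleoside phosphorylase gene, had 173 ± 25.8 and 181 ± 2.45 CPM (0.068 ± 0.10, edgeR adjusted p = 0.782). In Ang(1-7) against control the groups overlapped for Ahcy, with 714 ± 9.90 CPM in controls and 654 ± 160 in Ang(1-7) (-0.13 ± 0.16, edgeR adjusted p = 0.739).

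In Ang(1-7) against PA/OA, 0 genes of these 6 lists were called by edgeR or DESeq2. Over all genes edgeR called 0 of 9261 and DESeq2 called 5. At an edgeR unadjusted p under 0.05 there were 0, where 2.55% of all genes were. Zc3h12a and Rela were higher without overlap, and Ifit1, at 1.17 ± 0.478 CPM in PA/OA, was lower. Of all genes, 4.99% were higher and 6.01% lower in that way. The list medians were 0.14 for 3 Schlafen genes, 0.13 for 6 of the MS4A family, 0.00071 for 21 of A20 and NF-kB feedback, 0.044 for 18 NF-kB subunits and adaptors, 0.13 for 11 of the adenosine route and -0.23 for 9 interferon-stimulated genes, where that of all genes was -0.01. Tnfaip3 had 42.5 ± 5.84 CPM in PA/OA and 43.9 ± 6.10 in Ang(1-7), and Nfkbia 240 ± 10.3 and 241 ± 36.0. In Ang(1-7) against control, the Ang(1-7) libraries lay above the controls for 2 of 3 Schlafen genes and 3 of 4 of the MS4A family. They did so for 6 of 14 of A20 and NF-kB feedback and 3 of 11 NF-kB subunits and adaptors. Among adenosine and interferon-stimulated genes, 1 of 6 and 1 of 4 did, where 13.2% of all genes did. The 4 genes, chosen for such a rise, are counted. Adk and Tab1 lay below without overlap, where 13.3% of all genes did.

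**Figure D5:**
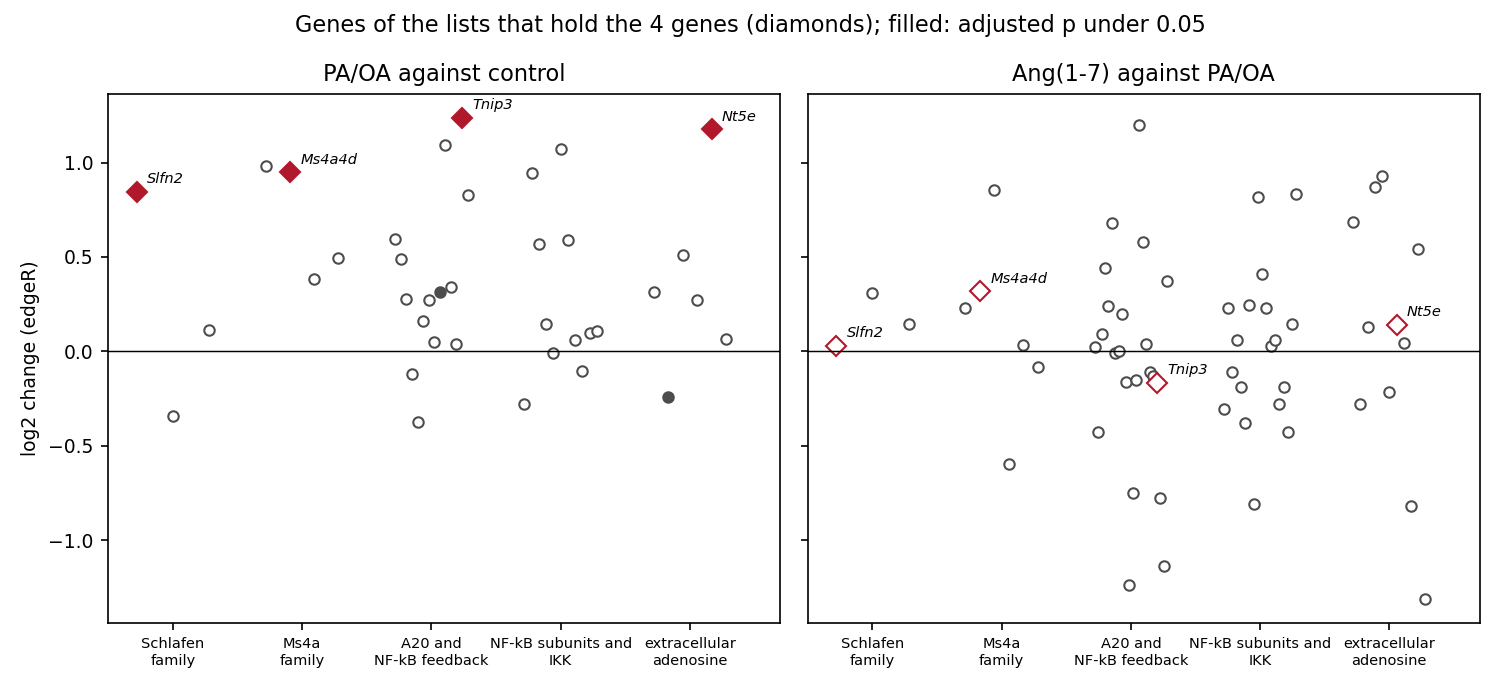
Fitted log2 change (y axis) of each tested gene of the 5 lists that hold the 4 genes or NF-kB subunits, for PA/OA against control (left) and Ang(1-7) against PA/OA (right), with diamonds for the 4 genes and filled symbols for an adjusted p under 0.05. On the left the 4 genes, Rnf11 and Ahcy are filled, and on the right 0 symbols are.

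Genes with the most similar profile were ranked by the root mean square difference of log2 CPM over the 9 libraries, each gene centred on its own mean, over 5781 genes. Slfn2 was nearest to the monocyte chemokine gene Ccl2 (0.064 on the log2 scale), Hpx, which encodes the heme carrier hemopexin (0.067), and Ptgs2, the inducible cyclooxygenase (0.080). Ccl2 stood at 968 ± 88.1 CPM in controls, 1724 ± 72.9 in PA/OA and 1818 ± 62.9 in Ang(1-7). Ms4a4d was nearest to the transcription factor gene Klf11 (0.14), Ptgs2 (0.16) and Serpinb9, a granzyme B inhibitor gene (0.18). Klf11 had 23.9 ± 1.55, 46.0 ± 2.69 and 57.6 ± 12.9 CPM in the 3 groups. Like Ms4a4d it was highest in Ang(1-7) 2, as were Ptgs2, Serpinb9, Ccl2, Slfn2 and Nt5e. In Ang(1-7) 3 and 1 Klf11 stood at 49.7 and 50.5 CPM, whereas Ms4a4d stood at 263 and 217.

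Tnip3 was nearest to the acyl-CoA thioesterase gene Acot1 (0.19), Apob, which encodes apolipoprotein B (0.19), and Slfn2 (0.20). Acot1 stood at 142 ± 5.84 CPM in controls, 274 ± 11.8 in PA/OA and 242 ± 24.8 in Ang(1-7). Nt5e was nearest to the retinaldehyde dehydrogenase gene Aldh1a1 (0.18), Apob (0.19) and the glucuronosyltransferase gene Ugt1a6b (0.21). Aldh1a1 had 503 ± 17.4, 1253 ± 67.4 and 1402 ± 148 CPM. Among the 4 genes themselves the differences ran from 0.20 between Slfn2 and Tnip3 to 0.27 between Tnip3 and Nt5e, and Tnip3 was the only one with another of the 4 among its 3 nearest genes. These likenesses rest on 9 libraries in 3 groups.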

How the data were processed

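Total RNA of 9 AML12 libraries was analysed, 3 each of control, PA/OA and Ang(1-7), grouped by the labels, and each column of sample values matched 1 sample by name. The authors deposited 3 tables, 1 per pair of groups, of whole-number counts per RefSeq transcript; bcl2fastq, HISAT2 2.2.5 and HTSeq 0.11.2 are named in the submitters' processing notes. A human build is given there although the transcripts are mouse, so no gene coordinates from the tables are used. Sources used here do not give the annotation release, strand setting or filter. The authors also deposited, for every transcript, a p-value (unadjusted, test not named) and a log2 ratio of the groups. Counts of a library for a transcript were identical wherever both were listed. The smallest mean count in a table was 56.8 (control and PA/OA), 5.17 (PA/OA and Ang(1-7)) and 59.5 (control and Ang(1-7)).

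Counts were summed per gene symbol and tested within each table by the quasi-likelihood F test of edgeR 4.0.16 (R 4.3.3) after filterByExpr and TMM scaling, with Benjamini-Hochberg adjustment over all 6213, 9261 and 6134 genes tested and a threshold of 0.05. Replicate numbers were left out of the model. SEs and 95% intervals are those of the model. Levels in a comparison of lists are CPM within its table, over the transcripts listed there. A gene with several transcripts can thus have a partial sum that differs between comparisons. Adk in PA/OA, for example, had 6.12 CPM beside the controls and 9.45 beside Ang(1-7). The labels mention no molecular identifiers, so reads may repeat a molecule. Scripts were tested on simulated data. The 12 lists held 219 genes. The rule named the 4 genes, of each list up to 4 members of lowest p plus Tnfaip3, Tnip1, Nfkbia, Entpd1, Adora2b, Adk, Slfn5 and Irf1 where listed, and for each gene the 3 most similar profiles (prior count 2, mean of at least 50 counts). Other genes were named after their values were seen. The members, lists and motifs were chosen with earlier results of these data known. Alternatives were a replicate block, DESeq2 1.42.0, DESeq2 size factors, no filter, curated transcripts, a fit over 9 libraries and each library left out.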

Additional observations from a re-analysis of the deposited data

How the results depend on the processing

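Against control, the log2 changes of the 4 genes were positive in each alternative, 12 for PA/OA (0.82 to 0.87 for Slfn2, 0.84 to 1.01 for Ms4a4d, 1.14 to 1.36 for Tnip3, 1.05 to 1.34 for Nt5e) and 13 for Ang(1-7) (0.84 to 0.89, 1.06 to 1.33, 1.02 to 1.09 and 1.09 to 1.45). In Ang(1-7) against PA/OA, 0 of the 4 were called in any of 13, with an adjusted p of 0.671 to 1.00 for Ms4a4d. Nt5e turned to -0.074 and Ms4a4d against control moved to 1.06 with Ang(1-7) 1 as the lone library of its group, a setting chosen after seeing the data, under which 229 genes were called against control. Genes called numbered 537 (PA/OA against control), 5 (Ang(1-7) against PA/OA) and 233 (Ang(1-7) against control) with DESeq2, 33, 0 and 100 in a fit over 9 libraries, and 347, 0 and 27 with curated transcripts. With a library left out they ranged from 99 to 397, 0 to 18 (18 without Ang(1-7) 1) and 4 to 624; the cause was not tested.

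Same-numbered libraries deviated from their group means, across genes, with r = 0.01 to 0.02 in PA/OA against control. The values were -0.067 to -0.020 in Ang(1-7) against PA/OA and -0.022 to 0.036 in Ang(1-7) against control. Such small values do not settle whether replicate numbers paired the samples. A replicate block called 303, 0 and 10 genes, against 314, 0 and 15 without it. In Ang(1-7) against control it called Ms4a4d alone of the 4 genes, and with DESeq2 size factors Nt5e was not called. Under those size factors the medians of all genes moved by less than 0.1 on the log2 scale. The coefficient of biological variation was 44.3% in Ang(1-7) against PA/OA, 30.7% in Ang(1-7) against control and 22.4% in PA/OA against control. The first comparison listed transcripts down to a mean count of 5.17, the others to 59.5 and 56.8, so these values are not like for like.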
